A study of Mus musculus with 2 samples.

Results

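The 9 genes described here are the insulin-like growth factor (IGF) ligands Igf1 and Igf2, the receptors Igf1r and Igf2r, and the binding proteins Igfbp2, Igfbp3, Igfbp4, Igfbp5 and Igfbp7. They were picked by symbol from the 31053 genes counted, and each symbol matched 1 gene. Eye cups of mouse pups at P0 (postnatal day 0) were profiled by single-cell RNA sequencing in 2 libraries. The control library came from Myrf fl/fl pups and the mutant library from Rx>cre Myrf fl/fl pups, each a pool of 3 eye cups. Per the study, cornea, lens and optic nerve were removed, but cells with lens markers remained, mostly in the control library. In both genotypes the 2 Myrf alleles are flanked by loxP sites, which the cre recombinase cuts, and only the mutants carry the Rx>cre transgene. Rx>cre acts early in the field of cells that gives both the neural retina and the pigment epithelium behind it (the RPE), so that cre had acted in retinal cells as well as in RPE. Vessels, macrophages and most of the mesenchyme around the eye come from other lineages.

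IGF1 and IGF2 are secreted growth factors that drive growth and survival through IGF1R, a receptor tyrosine kinase that signals through insulin receptor substrates, PI3K and AKT. IGF2R, the cation-independent mannose 6-phosphate receptor, binds IGF2 and takes it to the lysosome, and so lowers its amount. The binding proteins hold IGFs in the fluid around cells, where they can block or prolong the action of the ligand, and IGFBP7 binds IGFs only weakly. Igf2 and Igf2r are imprinted genes in the mouse, and IGF signalling is known in the eye for its part in ocular growth.

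After filtering, 12449 control and 10797 mutant cells were kept, with a median of 4274 and 4820 UMIs per cell (unique molecular identifiers, each of which tags 1 captured transcript). The 14305 control and 12222 mutant barcodes shared 59 sequences. Cells were clustered without the 9 genes, and clusters were named from marker genes, so that "RPE-like" means a cluster with RPE markers. A level is given as CPM, the UMIs of a gene scaled to 1000000 UMIs over all cells of that class in 1 library, with the exact 95% Poisson interval in parentheses. With 1 library per genotype there was no replicate and no test, and intervals cover counting error only. A difference is the log2 ratio of mutant to control after adding 1 CPM to each, and "past 2-fold" means at least 1 on that scale for genes with at least 20 UMIs over both libraries of the class.

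The RPE-like class held 486 control and 194 mutant cells, and its levels of the pigment genes Pmel (13900 and 10715 CPM in control and mutant cells) and Dct (5840 and 4528 CPM) and of Ttr (4956 and 1147 CPM) were high in both libraries. Pmel and Dct are shared with melanocytes. The 7 melanocyte markers that are not on the RPE list summed to 2415 CPM in control and 2302 CPM in mutant RPE-like cells. Most of that came from the pigment cell genes Mlana (1216 and 1004 CPM) and Tyr (950.6 and 1174 CPM). Pax3, which the study uses to tell melanocytes from RPE, was at 0 in both libraries. Sox10 was at 73.3 and 3.96 CPM. The study reports SOX10 in control RPE as well as in melanocytes, and its loss from mutant RPE. The part of the melanocyte markers in the results was not tested. Rpe65, which encodes the visual cycle isomerase, was at 3.73 CPM in the control and at 0 in the mutant library. Myrf was at 231.4 CPM (215.0 to 248.6) in control and at 26.8 CPM (20.5 to 34.4) in mutant RPE-like cells, a direction that fits the labels, although the 3′ tag does not read the deleted exon. The depth of these cells differed between libraries, with a median of 2538 UMIs per control cell and 10410 per mutant cell. Summed over a list of 12 mesenchyme markers, the level in RPE-like cells was 2458 CPM in control and 336.7 CPM in mutant cells. The same list stood at 1466 and 250.5 CPM in retinal progenitor-like cells, and none of the 12 was at 0 in either class. Lens carry-over differed too, with 224 lens-like cells in the control and 1 in the mutant library. A list of 10 lens markers summed to 394.4 CPM in control and 73 CPM in mutant RPE-like cells. In progenitor-like cells it summed to 258.1 and 1.87 CPM. The part of depth, of mesenchyme RNA and of lens RNA in the differences given below was not tested. Values in cells with over 8000 UMIs are therefore set beside the main values (151 control and 109 mutant RPE-like cells). That limit was chosen after the depth gap was seen.

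Of the 9 genes, 3 were past 2-fold higher in mutant RPE-like cells, namely Igf2, Igfbp2 and Igfbp4, against 2.61% of the 11038 genes tested in that class. One gene, Igfbp3, was past 2-fold lower, against 5.01% of all genes, and the median log2 ratio of the 9 genes was 0.45 against -0.01 for all genes tested. When all cells were summed, the 2 receptors and Igfbp7 stayed within 2-fold, as did Igf1 and Igfbp5. The calls of Igf2, Igfbp4, Igf1 and Igf2r depended on how cells were weighted. With cells thinned to 1000 UMIs the log2 ratios of Igf2 and Igfbp4 were 0.93 and 0.80, within 2-fold, whereas Igfbp2 was at 1.35. In those thinned cells Igf1 (-1.16) and Igf2r (-1.16) were past 2-fold lower. With the mean of per-cell CPM Igf2 was at 1.02 and Igfbp4 at 0.28.

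**Figure D1:**
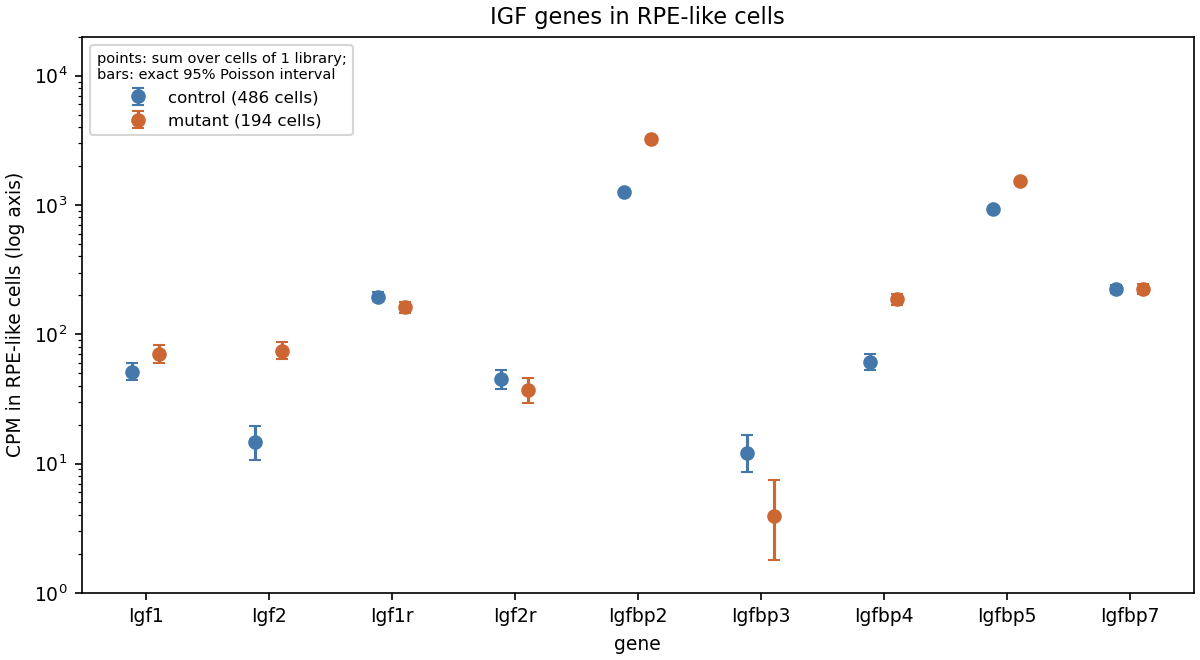
Levels of the 9 IGF genes in RPE-like cells of the control (blue, 486 cells) and mutant (orange, 194 cells) library, in CPM on a log axis. Points are sums over the cells of 1 library and bars are exact 95% Poisson intervals; the intervals lie apart most widely for Igf2, Igfbp2 and Igfbp4, and those of Igfbp7 (225.5 and 222.4 CPM) overlap.

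Igfbp2, the binding protein with the highest level in this class, was at 1251 CPM (1213 to 1290) in control and 3265 CPM (3191 to 3340) in mutant RPE-like cells. The log2 ratio was 1.38 (1.33 to 1.44), or 2.61-fold. In cells with over 8000 UMIs the levels were 1353 CPM (1308 to 1400) and 3445 CPM (3365 to 3527), so the difference was of the same size among deep cells. Among those deep cells, the median cell had 1168 CPM in control and 3285 CPM in mutant cells, the quartiles were 847.5 and 1627 CPM against 1664 and 4500 CPM, and 51 of 109 mutant cells lay above the highest control cell (3400 CPM). At the low end, 15 of the 109 mutant cells lay below the lower quartile of the control cells. With every cell thinned to 1000 UMIs, Igfbp2 was detected in 55.6% of 385 control cells (exact binomial interval 50.5 to 60.6) and 75.7% of 169 mutant cells (68.6 to 82.0), against 71.2% and 86.1% before thinning. Thinned red blood cells, which should lack the transcript, had a UMI of Igfbp2 in 7.96% of 113 control and 2.41% of 83 mutant cells, with a median of 3579 and 11715 UMIs per cell before thinning.

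Igf2 was scarce in control RPE-like cells, with 47 UMIs in all, or 14.6 CPM (10.7 to 19.4), and reached 74.7 CPM (63.9 to 86.8) from 170 UMIs in mutant cells, a log2 ratio of 2.28 (1.88 to 2.85). The difference was larger in cells with over 8000 UMIs, where Igf2 was at 9.96 CPM (6.45 to 14.7) and 80.1 CPM (68.3 to 93.4). There, 20 of 151 control and 59 of 109 mutant cells had an Igf2 UMI, and 19 mutant cells lay above the highest control cell (146.9 CPM). One mutant cell, at 1143 CPM, held 6.75% of the Igf2 UMIs of the deep mutant cells, and without the top cell of each library the class log2 ratio was 2.30. RPE-like cells with up to 4000 UMIs had 39.9 CPM (23.7 to 63.1) in control and 31.6 CPM (6.52 to 92.4) in mutant cells. Those figures rest on 18 and 3 UMIs, and their intervals overlap.

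Igfbp4 followed the same order, with 60.9 CPM (52.6 to 70.0) in control and 186.8 CPM (169.5 to 205.5) in mutant RPE-like cells and a log2 ratio of 1.60 (1.37 to 1.87). In cells with over 8000 UMIs it was at 39.8 CPM (32.4 to 48.5) and 195.5 CPM (176.8 to 215.7), and 25 of 109 mutant cells lay above the highest control cell (314.0 CPM). The median deep cell had none of it in the control library and 124.9 CPM in the mutant library. In cells with up to 4000 UMIs the order was the opposite within overlapping intervals, at 184.1 CPM (146.7 to 228.3) and 147.5 CPM (80.7 to 247.5). Igf2 and Igfbp4 were thus higher in the mutant library among deep RPE-like cells, and a difference was not detectable among shallow ones at this depth.

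**Figure D2:**
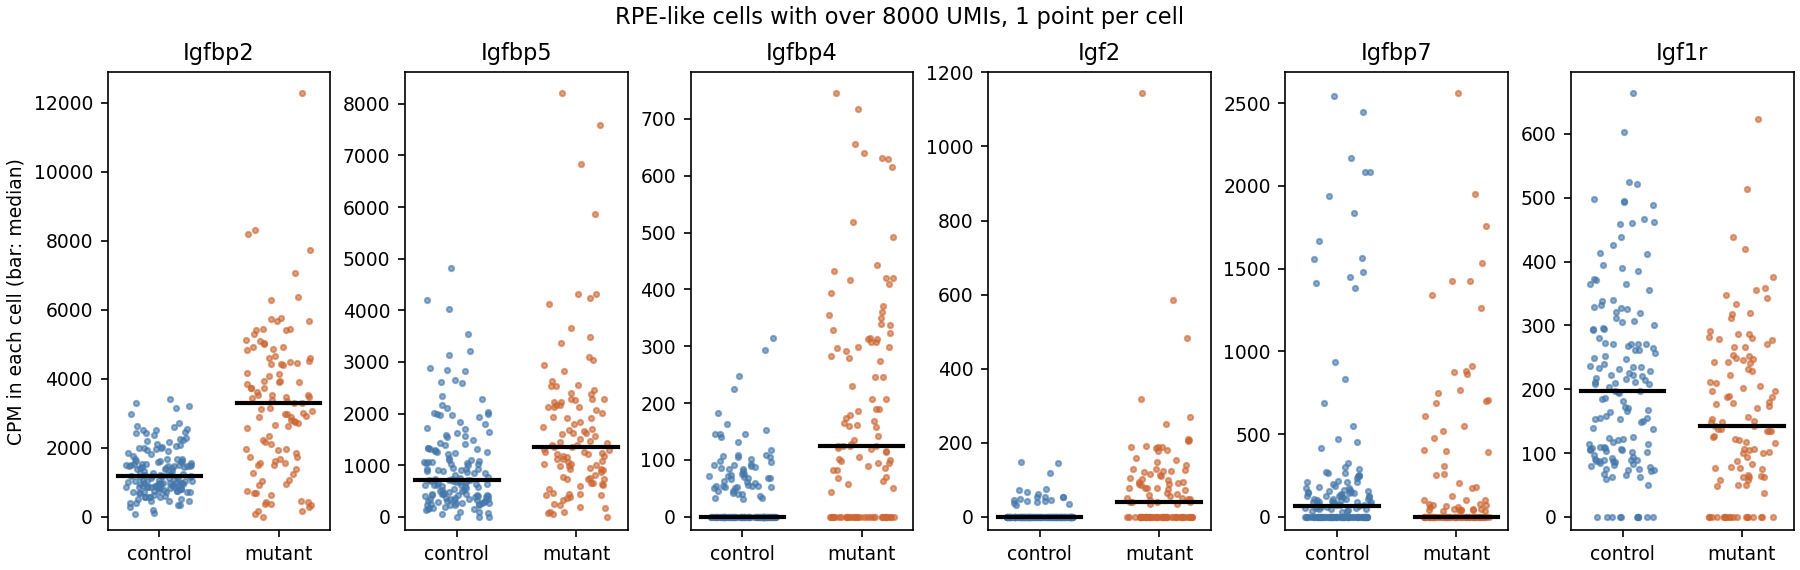
CPM in single RPE-like cells with over 8000 UMIs, 1 point per cell (151 control, 109 mutant), with a bar at the median, for 6 of the IGF genes. The mutant cells of Igfbp2 reach 12264 CPM against 3400 CPM in the control, whereas a few cells of either library carry the high values of Igfbp7.

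Igfbp5, encoded next to Igfbp2, was at 937.2 CPM (904.1 to 971.2) in control and 1535 CPM (1485 to 1587) in mutant RPE-like cells, a log2 ratio of 0.71 (0.64 to 0.78). The deep cells gave 950.9 CPM (913.2 to 989.9) and 1637 CPM (1582 to 1694). With at most 2000 UMIs per cell the order was the opposite. There the log2 ratio of Igfbp5 was -0.43 and the median of all genes was -0.35. The cells of the libraries overlapped over most of their range, and 4 of 109 mutant cells lay above the highest control cell. Igfbp3 had 39 and 9 UMIs in the class, or 12.1 CPM (8.61 to 16.6) and 3.96 CPM (1.81 to 7.51). Per cell that was 0.0802 and 0.0464 UMIs, beside 0.0355 UMIs per control red blood cell and none in 88 mutant ones. Igfbp3 was thus scarce in RPE-like cells, at values above that background. The background itself rests on 5 UMIs in 141 control red blood cells. Among deep cells it stood at 5.98 CPM (3.34 to 9.86) and 3.93 CPM (1.70 to 7.74), with overlapping intervals.

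Igfbp7 was close in RPE-like cells of both libraries when all cells were summed, at 225.5 CPM (209.3 to 242.5) and 222.4 CPM (203.5 to 242.7), with a log2 ratio of -0.02 (-0.19 to 0.15). The sign of that value held in 11 of 19 alternatives, and in cells with an Xist UMI and no Y-linked UMI the log2 ratio was 1.47. Igfbp7 was spread unevenly. In deep cells the median was 66.0 CPM in the control and 0 in the mutant library, while 14 of 151 control and 8 of 109 mutant cells were over 1000 CPM and held 61.0% and 44.7% of the Igfbp7 UMIs. The pericyte markers, whose class is highest in Igfbp7, summed to 272.3 CPM in control and 374.5 CPM in mutant RPE-like cells, and their part in this was not tested.

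Among the ligands and receptors, Igf1 was at 51.5 CPM (44.0 to 60) and 70.8 CPM (60.3 to 82.6) in control and mutant RPE-like cells. Its log2 ratio was 0.45 (0.14 to 0.78) when UMIs were summed, and -0.61 when each cell had the same weight, so the direction for Igf1 depended on how cells of different depth were weighted. Igf1r was at 195.6 CPM (180.7 to 211.5) and 161.3 CPM (145.2 to 178.7), a log2 ratio of -0.28 (-0.47 to -0.09). Igf2r was at 44.7 CPM (37.7 to 52.6) and 36.9 CPM (29.5 to 45.7), and the interval of its log2 ratio, -0.68 to 0.12, included 0. When all cells were summed, the signalling receptor and the clearing receptor therefore differed by less than 2-fold in this class. With at most 2000 UMIs per cell Igf1r was past 2-fold lower (-1.62). With cells thinned to 1000 UMIs Igf2r was past 2-fold lower (-1.16).

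Each pool mixed pups, so cells were also split by sex-linked UMIs. Cells with an Xist UMI and no Y-linked UMI had Igfbp2 at 1628 CPM (1546 to 1714) in 80 control and 3646 CPM (3546 to 3747) in 76 mutant RPE-like cells. Cells with a Y-linked UMI and no Xist UMI had 1143 CPM (1088 to 1200) in 127 control and 2962 CPM (2807 to 3123) in 34 mutant cells. Igf2 was at 12.2 and 81.6 CPM in the former set and at 12.1 and 79.6 CPM in the latter, and Igfbp4 at 43.4 and 189.7 CPM and at 47.1 and 176.4 CPM. The order of the libraries was thus the same in both sets for these 3 genes. Other members differed between the sets. Igfbp7 was at 79 and 219.7 CPM in the Xist set, past 2-fold (1.47), and at 286.1 and 335.5 CPM in the Y-linked set (0.23). Igfbp5 was at 1032 and 1395 CPM in the Xist set (0.43) and at 871.2 and 2028 CPM in the Y-linked set, past 2-fold (1.22). These parts are cells of the same libraries and not replicates.

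The promoters of 3 binding proteins with higher levels in mutant RPE-like cells, Igfbp2 and Igfbp4 past 2-fold and Igfbp5 within it, are shown because the mutants lack a transcription factor, MYRF, and because MITF and OTX2 are factors of the RPE. Sequences are the 250 bases before an annotated start, from RefSeq on GRCm38.p6, and all 9 genes matched, with 13 windows in all. The motifs searched on both strands were CTGGCAC and CTGGTAC (MYRF), CACGTG and CATGTG (E-boxes read by MITF), TAATCC (OTX2) and TATAAA (the TATA box). Capitals mark a match.
Igfbp2, plus strand, chr1:72824230-72824479: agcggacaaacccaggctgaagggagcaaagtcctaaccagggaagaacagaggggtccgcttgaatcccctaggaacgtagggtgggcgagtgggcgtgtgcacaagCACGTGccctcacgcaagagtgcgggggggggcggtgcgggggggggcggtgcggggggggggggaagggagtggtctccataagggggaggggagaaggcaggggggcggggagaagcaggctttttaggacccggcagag
Igfbp4, plus strand, chr11:99040994-99041243: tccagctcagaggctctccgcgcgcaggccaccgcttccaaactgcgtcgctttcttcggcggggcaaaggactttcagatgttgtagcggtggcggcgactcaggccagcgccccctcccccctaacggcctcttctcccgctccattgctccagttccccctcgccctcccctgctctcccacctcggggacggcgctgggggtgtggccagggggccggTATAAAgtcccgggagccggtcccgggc
Igfbp5, minus strand, chr1:72874866-72875115: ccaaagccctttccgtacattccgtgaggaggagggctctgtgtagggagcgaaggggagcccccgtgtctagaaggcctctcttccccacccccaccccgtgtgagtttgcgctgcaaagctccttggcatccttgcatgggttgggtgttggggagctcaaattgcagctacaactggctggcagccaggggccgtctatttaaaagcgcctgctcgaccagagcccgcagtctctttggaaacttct
Igfbp2 held CACGTG from position -142 relative to the start, in the first of its windows, and Igfbp4 held TATAAA from position -28. The Igfbp5 window held none of the 6 motifs. Igf2r, not printed, held CACGTG at -48 and -7 and CATGTG at -91. No window of the 9 genes held a MYRF motif, which says only that these letters are not in these windows. Over the 32851 promoter windows of the same length, 6.02% held CACGTG, 12.3% CATGTG, 6.25% TAATCC, 12.4% TATAAA and 5.93% either MYRF form. A match is a string of letters, not evidence of binding.

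In the genome (GRCm38), Igfbp2 spans chr1:72824503-72852474 on the plus strand and Igfbp5 chr1:72857932-72874884 on the minus strand, so the 3′ ends of these neighbours face each other across 5457 bases. Igf2 lies at chr7:142650766-142666816 on the minus strand, 11839 bases from Ins2 and 72622 bases from the imprinted RNA gene H19, and overlaps the antisense gene Igf2os over 7124 bases. Igf1 (chr10:87858265-87937042, plus strand) overlaps Igf1os over 5117 bases, and whether counting used the strand is not given in the sources used here. The other genes are Igf1r at chr7:67952827-68233668, Igf2r at chr17:12682406-12769664, Igfbp3 at chr11:7206086-7213923, Igfbp4 at chr11:99041244-99054392 and Igfbp7 at chr5:77349240-77408041. All 9 encode proteins.

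Across the eye cup, 5 of the 9 genes (Igf1, Igf2, Igfbp2, Igfbp4 and Igfbp5) were highest in mesenchyme-like control cells, Igf2r and Igfbp7 in pericyte-like, Igfbp3 in endothelial-like and Igf1r in photoreceptor-like cells. The order of classes was close in the 2 libraries, with correlations between libraries of 0.920 (Igf2) to 0.981 (Igf1) over 12 classes on the log2(CPM + 1) scale. These are descriptions over classes that share a library and its depth. Of the ligand UMIs, the mesenchyme-like class held 52.0% for Igf1 and 71.0% for Igf2 in the control library and 48.5% and 65.1% in the mutant library. Orders of classes below are over the named classes with at least 50 cells in a library, and both unnamed clusters and smaller named classes stood between or above some of them. Igf1r was found throughout the neural retina, and binding proteins divided between mesenchyme, vessels, RPE and progenitors.

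**Figure D3:**
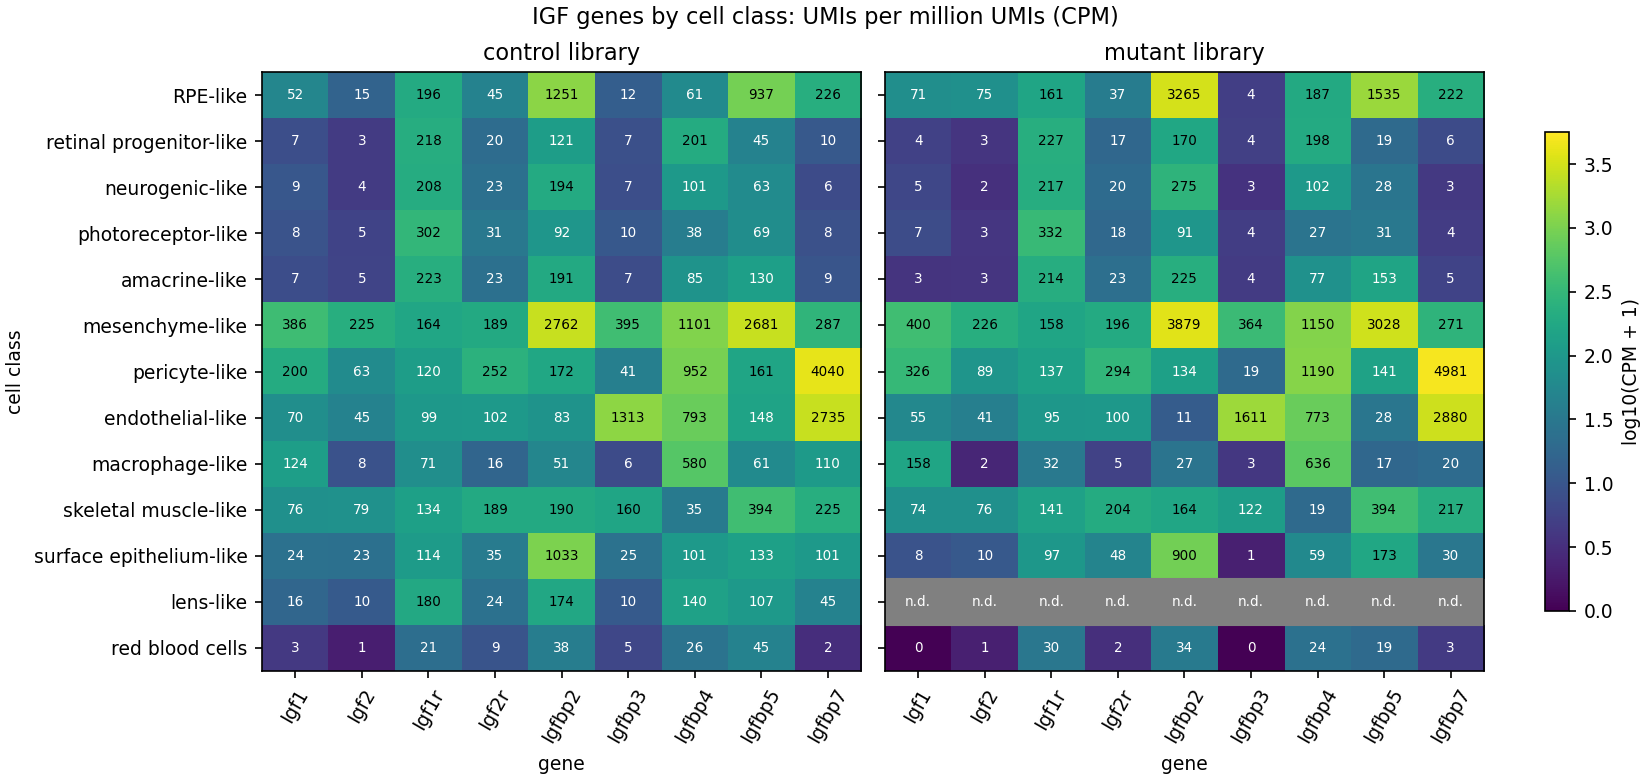
Level of each IGF gene in 13 cell classes of the control (left) and mutant (right) library, as CPM printed in each cell and coloured by log10(CPM + 1). Grey squares are classes with under 50 cells in that library; Igfbp7 is highest in pericyte-like cells (4040 and 4981 CPM) and Igfbp3 in endothelial-like cells (1313 and 1611 CPM).

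Igf1 was highest among the named classes in mesenchyme-like cells, at 385.9 CPM (375.2 to 396.9) in control and 400.5 CPM (386.5 to 414.8) in mutant cells. Pericyte-like cells came next at 199.9 CPM (170.6 to 232.7) and 325.7 CPM (282.6 to 373.4), and then macrophage-like cells at 123.5 CPM (107.7 to 141.0) and 158.2 CPM (129.4 to 191.5). The intervals of these neighbours in the order did not overlap in either library. An unnamed cluster led by Lypd1, Cnn1 and Spp1 stood higher still, at 1562 CPM (1491 to 1636) in 126 control and 1865 CPM (1777 to 1956) in 92 mutant cells. The unnamed cluster led by Alpl and Aldh1a2, at 385.0 and 374.9 CPM, also stood above pericyte-like cells. RPE-like, endothelial-like and skeletal muscle-like cells lay between 51.5 and 76.5 CPM in both libraries. In the 4 neural classes (progenitor-like, neurogenic-like, amacrine-like and photoreceptor-like cells) Igf1 was at 2.62 to 9.35 CPM.

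Igf2 was highest among the named classes in mesenchyme-like cells at 225.4 CPM (217.2 to 233.8) and 226.2 CPM (215.7 to 237.1), which did not differ beyond counting error. In the control library, skeletal muscle-like cells (78.9 CPM), pericyte-like cells (62.6 CPM) and endothelial-like cells (45 CPM) followed, and RPE-like cells came after surface epithelium-like cells (23.2 CPM). In the mutant library, among the classes of that size, mesenchyme-like, pericyte-like and skeletal muscle-like cells stood above RPE-like cells, whose interval overlapped that of skeletal muscle-like cells (75.8 CPM, 56.1 to 100.2). The few astrocyte-like cells described after the binding proteins were also above RPE-like cells in both libraries. An unnamed cluster led by Alpl and Aldh1a2 had 132.3 and 158.2 CPM of Igf2 in control and mutant cells. Within the mesenchyme, the cluster led by Clec3b, Pi16 and Dpt had 339.5 and 355.1 CPM, whereas the one led by Aldh3a1 and Kera, genes of corneal stroma cells, had 42.3 and 30.8 CPM. RPE-like cells gave 1.16% of all control and 6.33% of all mutant Igf2 UMIs. The 4 neural classes had 2.33 to 4.95 CPM of Igf2.

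Igf1r was highest among the named classes in photoreceptor-like cells at 301.6 CPM (285.9 to 318.1) and 332.3 CPM (317.2 to 347.9), and its interval there did not overlap that of the next named class in either library. An unnamed cluster led by Klhl35 and Igfbpl1 had 318.7 and 279.9 CPM of Igf1r, and an unnamed cluster of shallow cells led by Gm26870 had 252.3 and 342.3 CPM. Retinal progenitor-like, neurogenic-like and amacrine-like cells lay between 208.1 and 227.0 CPM, and neighbours in that order overlapped. Within the photoreceptor-like class, the cluster led by the rod genes Nr2e3 and Sag had 340.7 CPM (312.2 to 371.0) and 380.7 CPM (353.3 to 409.8). The cluster with the cone genes Opn1sw and Gnat2 had 325.2 CPM (285.6 to 368.8) and 290.7 CPM (258.7 to 325.7). The rod interval was thus apart from the cone interval in the mutant library and not in the control. Progenitor-like cells led by Ung, Npy and Hes5 had 265.3 and 266.4 CPM, above the clusters led by histone genes (189.2 and 205.5 CPM) and by the mitotic genes Ube2c and Plk1 (180.6 and 188.6 CPM).

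Igf2r was highest among the named classes in pericyte-like cells at 251.7 CPM (218.7 to 288.2) and 293.9 CPM (253.1 to 339.4). Mesenchyme-like cells (188.9 and 196.4 CPM) and skeletal muscle-like cells (188.8 and 204.2 CPM) overlapped each other, and endothelial-like cells followed at 102.0 and 99.7 CPM, below the unnamed Alpl and Aldh1a2 cluster at 124.0 and 132.5 CPM. RPE-like cells lay below all of these. The neural classes had 16.8 to 30.9 CPM.

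Among the named classes of at least 50 cells, Igfbp2 was highest in mesenchyme-like cells at 2762 CPM (2734 to 2791) and 3879 CPM (3836 to 3924), then in RPE-like cells, then in surface epithelium-like cells at 1033 CPM (974.0 to 1094) and 900.1 CPM (838.5 to 965.1). The unnamed Lypd1 and Cnn1 cluster had 2135 and 2432 CPM. A single mesenchyme-like cluster, led by Aldh3a1 and Kera, held 30107 of the 35143 control and 27972 of the 30011 mutant Igfbp2 UMIs of that class. Its level was the same in both libraries, 11172 CPM (11046 to 11299) and 11183 CPM (11052 to 11315), but it made up 185 of 1633 mesenchyme-like control cells and 173 of 634 mutant ones. The mix of clusters differed further, since a cluster of shallow cells led by Col27a1 and Dkk2 (median 1703 UMIs per control cell) held 716 of the 1633 control and 36 of the 634 mutant mesenchyme-like cells. Comparisons in this class are thus between different mixes of clusters, and their part in the log2 ratio of 0.49 for Igfbp2 in the whole class was not tested. Without the Dkk2 cluster that ratio was 0.40 (2966 and 3909 CPM). The other mesenchyme-like clusters with 100 cells in each library went opposite ways. In the cluster led by Clec3b and Pi16, Igfbp2 was at 377.4 CPM (359.8 to 395.7) in control and 265.0 CPM (245.7 to 285.4) in mutant cells, a log2 ratio of -0.51 (-0.64 to -0.38). In the cluster led by 1500015O10Rik and Acan it was at 468.2 and 565.2 CPM, a log2 ratio of 0.27 (0.16 to 0.38).

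**Figure D4:**
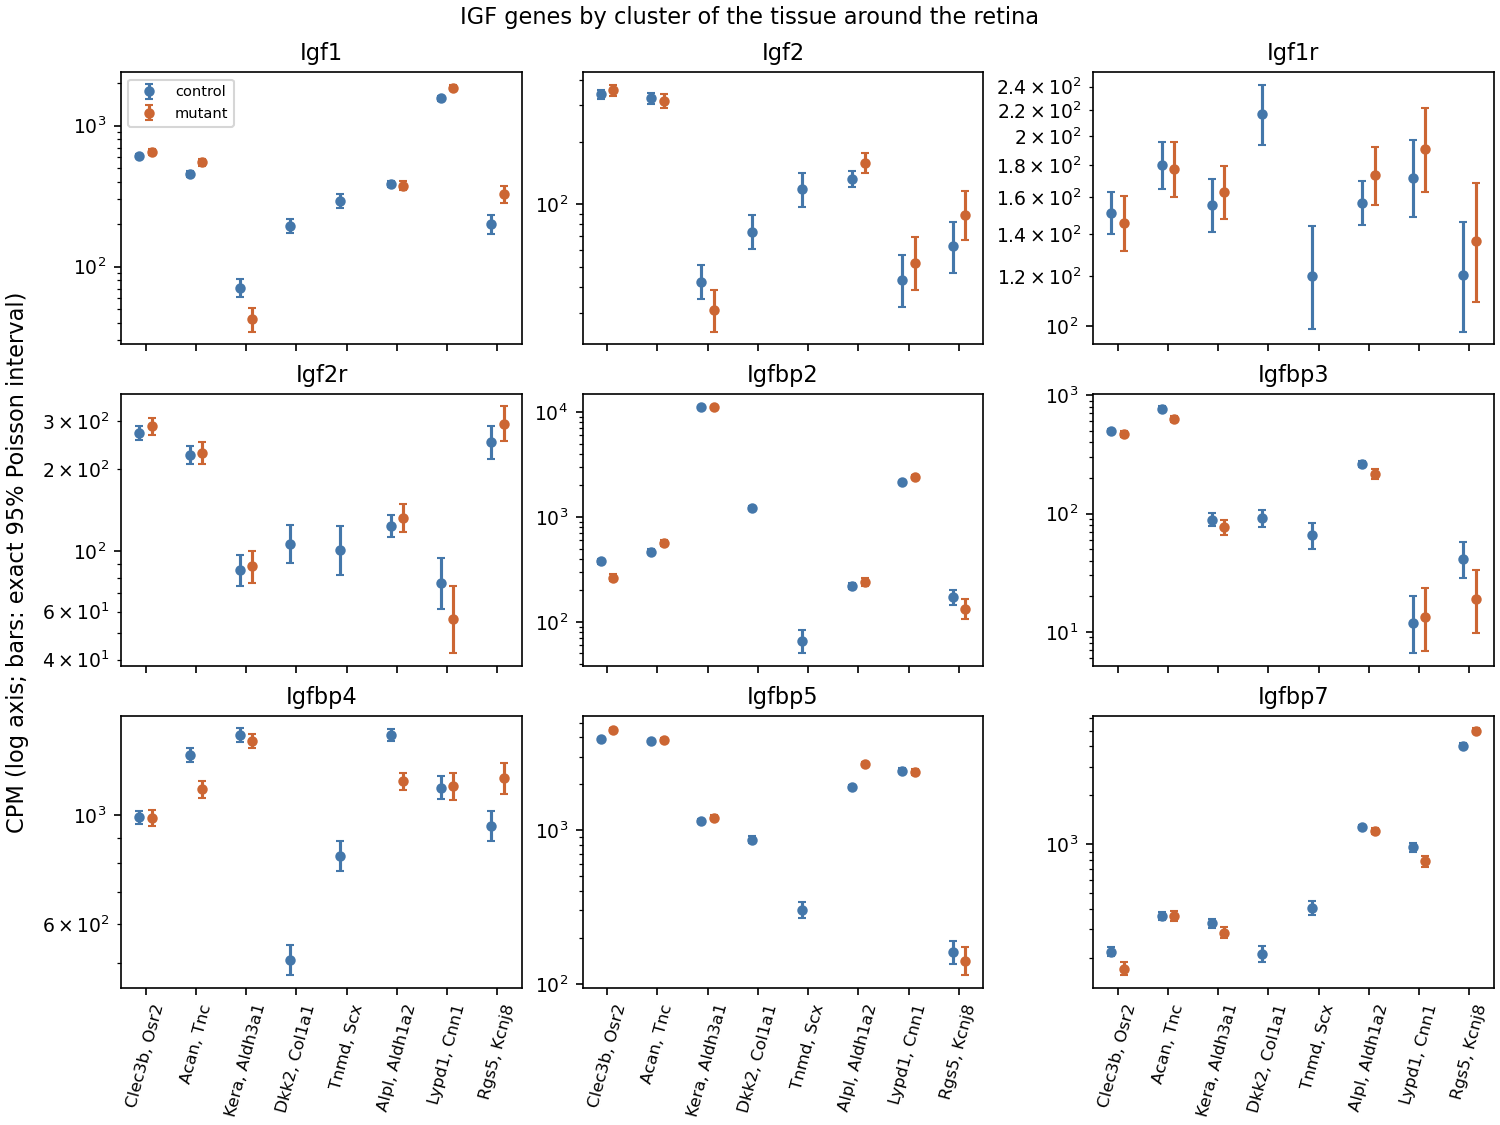
CPM of each IGF gene (log axes that do not start at 0) in 8 clusters of the tissue around the retina, named by 2 of their leading genes, with exact 95% Poisson intervals; clusters with under 50 cells in a library have 1 point. Igfbp2 reaches 11172 and 11183 CPM in the Kera and Aldh3a1 cluster, and Igf1 peaks at 1562 and 1865 CPM in the Lypd1 and Cnn1 cluster.

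Igfbp5 shared the mesenchyme and RPE with Igfbp2 but not the cluster. It was at 2681 CPM (2652 to 2709) and 3028 CPM (2989 to 3067) in mesenchyme-like cells, with 3931 and 4500 CPM in the Clec3b and Pi16 cluster and 1144 and 1203 CPM in the Aldh3a1 and Kera cluster. Among the named classes of at least 50 cells, RPE-like cells were second for Igfbp5 in both libraries, followed by skeletal muscle-like cells at 394.3 and 394.5 CPM. The unnamed clusters stood higher, at 1906 and 2693 CPM in the Alpl and Aldh1a2 cluster and 2430 and 2383 CPM in the Lypd1 and Cnn1 cluster. In amacrine-like cells, the cluster led by Prdm13 and Ptf1a had 225.3 CPM (204.2 to 247.9) and 307.9 CPM (286.2 to 330.9), whereas the cluster led by Crabp1 and Lhx9 had 41.0 and 25.9 CPM.

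Igfbp3 and Igfbp7 were highest in the vascular classes among those named. Igfbp3 was at 1313 CPM (1275 to 1353) and 1611 CPM (1553 to 1670) in endothelial-like cells, and mesenchyme-like cells were second at 395.1 and 364.0 CPM. Igfbp7 was at 4040 CPM (3905 to 4179) and 4981 CPM (4808 to 5158) in pericyte-like cells and at 2735 CPM (2680 to 2792) and 2880 CPM (2803 to 2959) in endothelial-like cells. In the 4 neural classes Igfbp3 stayed at or below 9.92 CPM and Igfbp7 at or below 10.2 CPM.

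Igfbp4 was found in mesenchyme, vessels, macrophages and retina. It was at 1101 CPM (1082 to 1119) and 1150 CPM (1126 to 1174) in mesenchyme-like cells, 952.5 CPM (887.3 to 1021) and 1190 CPM (1106 to 1278) in pericyte-like cells, and 792.6 and 772.8 CPM in endothelial-like cells. The unnamed Alpl and Aldh1a2 cluster had 1457 and 1174 CPM of Igfbp4. Macrophage-like cells, at 580.4 and 635.7 CPM, were well above the 4 neural classes. Among those, progenitor-like cells led at 201.2 CPM (194.4 to 208.1) and 198.4 CPM (192.3 to 204.6), and photoreceptor-like cells were lowest at 37.5 and 27.0 CPM. An unnamed cluster led by the mitotic genes Cdkn3 and Cdc20 had 241.4 and 266.4 CPM. Within progenitors, the mitotic cluster led by Ube2c and Plk1 had 266.5 CPM (252.6 to 281.1) and 253.5 CPM (240.5 to 267.0), above the histone gene cluster at 170.4 and 158.3 CPM in both libraries.

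Small classes stood high for some of these genes, and their values were added after the larger classes had been seen. The astrocyte-like class (31 control and 33 mutant cells) had 3 of its 6 markers, namely Pax2, Gfap and S100b. Its Igf2 level was 201.8 CPM (161.0 to 249.9) in control and 139.9 CPM (112.1 to 172.6) in mutant cells, with a UMI in 24 cells of each library. Igfbp2 was at 1941 CPM (1810 to 2080) and 1398 CPM (1306 to 1494), above RPE-like cells in the control library and below them in the mutant library. Igfbp5 was at 855.4 CPM (768.8 to 949.0) and 886.2 CPM (813.7 to 963.4), and Igfbp4 at 812.1 and 569.4 CPM. Igfbp7 had 0 and 1 UMIs there. The Schwann or glia-like class (21 and 18 cells) was high for Igfbp7 at 1428 CPM (1217 to 1666) and 1626 CPM (1405 to 1871). With so few cells these levels are given without a comparison of the genotypes.

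The other classes with at least 100 cells in each library were compared in the same way. In mesenchyme-like cells 0 of 9 were past 2-fold in either direction, against 1.29% of all genes. In endothelial-like cells 2 were past 2-fold, both lower in the mutant library, against 3.86% of all genes. They were Igfbp2, at 83.1 CPM (73.7 to 93.4) and 11.4 CPM (7.04 to 17.4), with a log2 ratio of -2.76, and Igfbp5, at 148.5 CPM (135.8 to 162.0) and 28.2 CPM (21.0 to 37.0), with a log2 ratio of -2.36. A single control cell held 151 of the 281 Igfbp2 UMIs, and without the top cell of each library the log2 ratio of Igfbp2 was -1.79. The summed mesenchyme markers in endothelial-like cells moved the same way, from 1387 CPM in the control to 183.2 CPM in the mutant library with 1 of the 12 markers at 0 in each, and their part was not tested. Igfbp2 in mutant endothelial-like cells, at 0.128 UMIs per cell, was below the 0.352 UMIs per mutant red blood cell. In that background 1 cell held 11 of the 31 UMIs, and without it the level was 0.23 UMIs per cell.

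**Figure D5:**
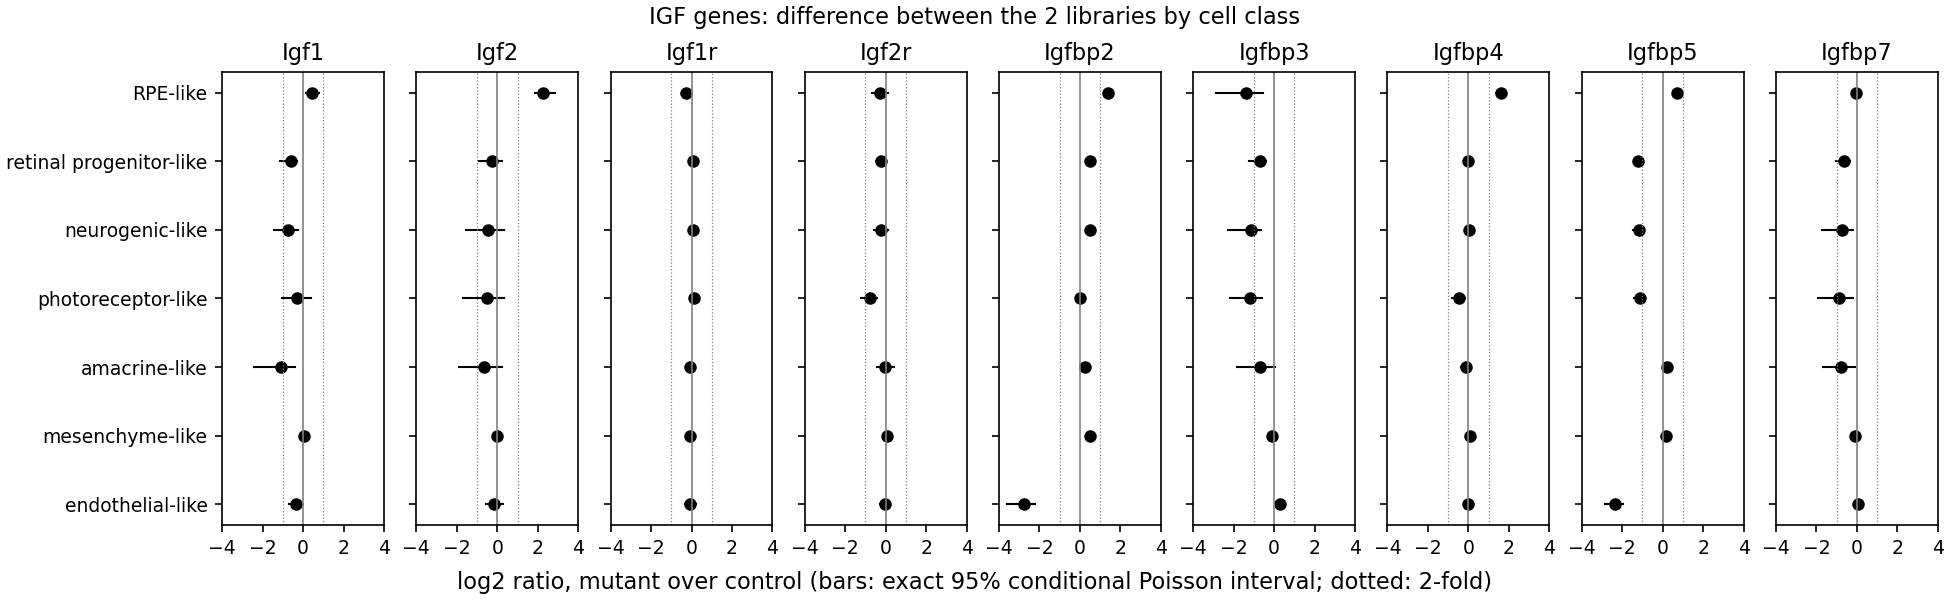
Log2 ratio of mutant to control for each IGF gene in the 7 classes with at least 100 cells in each library, with exact 95% conditional Poisson intervals and dotted lines at 2-fold. Igfbp2 stands to the right in RPE-like cells (1.38) and to the left in endothelial-like cells (-2.76), and Igf1r lies between -0.28 and 0.14 in the classes shown.

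In the retina, the genes past 2-fold were all lower in the mutant library. They were Igfbp5 in retinal progenitor-like cells (1 of 9, against 0.942% of all genes), Igfbp3 and Igfbp5 in photoreceptor-like cells (2 of 9, against 1.77%), the same pair in neurogenic-like cells (2 of 9, against 1.33%), and Igf1 in amacrine-like cells (1 of 9, against 1.84%). Igfbp5 was at 45.3 and 19.1 CPM in progenitor-like, 68.8 and 31.2 CPM in photoreceptor-like and 63.3 and 27.7 CPM in neurogenic-like cells. Per cell, these were 0.099 to 0.285 UMIs of Igfbp5, beside 0.298 UMIs per control and 0.193 per mutant red blood cell, so in the control library they were below the level in red blood cells. The mutant background was carried by few cells, with 7 of its 17 UMIs in 1 of 88 cells and 88.2% in 5 cells. Without the top cell it was 0.115 UMIs per cell, beside 0.099 to 0.139 in the mutant neural classes just named. These low levels of Igfbp5 are not read as a difference in expression. Igfbp3 in neurogenic-like cells and photoreceptor-like cells was at 0.013 to 0.0343 UMIs per cell, beside 0.0355 in control red blood cells and 0 in 88 mutant ones. Igf1 in amacrine-like cells rested on 26 and 14 UMIs, at 6.77 and 2.62 CPM. Its log2 ratio of -1.10 kept its direction in 16 of 19 alternatives and was 5.91 with at most 2000 UMIs per cell. Summed mesenchyme markers in the 4 neural classes were 1435 to 2085 CPM in the control and 210.9 to 317.4 CPM in the mutant library, and their part was not tested.

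Igfbp2 was above the red blood cell level of both libraries in 3 of the 4 neural classes and higher there in the mutant library. Photoreceptor-like cells had 0.318 and 0.349 UMIs per cell, beside 0.248 and 0.352 in red blood cells. It was at 120.7 CPM (115.5 to 126.1) and 169.7 CPM (164.1 to 175.5) in progenitor-like cells and 193.5 CPM (183.2 to 204.2) and 275.2 CPM (263.6 to 287.2) in neurogenic-like cells, with log2 ratios of 0.49 and 0.51, within 2-fold. In progenitor-like cells with an Xist UMI and no Y-linked UMI the order of Igfbp2 was the opposite, with a log2 ratio of -0.40 (213.1 and 160.7 CPM in 70 control and 2902 mutant cells). With a Y-linked UMI and no Xist UMI it was 0.80 (115.1 and 201.0 CPM in 1943 control and 525 mutant cells). Sexed progenitor-like cells were thus mostly Y-linked in the control and mostly Xist-bearing in the mutant library, and sex composition and genotype cannot be told apart when all cells are summed. In neurogenic-like cells Igfbp2 was higher in the mutant library in both sets, with log2 ratios of 0.28 (203.3 and 247.4 CPM) in the Xist set and 0.79 (190.9 and 331.7 CPM) in the Y-linked set. Amacrine-like cells had 191.2 and 224.6 CPM, a log2 ratio of 0.23 (0.10 to 0.37), and photoreceptor-like cells had 91.9 and 91.4 CPM. The clusters of the photoreceptor-like class differed in opposite directions. Igfbp2 was higher in mutant cells of the cluster led by Fabp7 (107.8 and 147.0 CPM, log2 ratio 0.44, 0.21 to 0.69). It was lower in the rod cluster (88.9 and 47.6 CPM, -0.89, -1.30 to -0.51) and in the cone cluster, on 38 and 30 UMIs (50.9 and 29.3 CPM, -0.78, -1.54 to -0.07). The class as a whole, at 0.318 and 0.349 UMIs per cell, lay near the red blood cell level of 0.248 and 0.352. The rod and cone values, lower than those of the class, are thus not read as a difference in expression. Igf1r differed little, with log2 ratios of -0.06 to 0.14 in the 4 neural classes. Igfbp4 in progenitor-like cells had a log2 ratio of -0.02 (-0.09 to 0.05).

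Beyond the 9 genes, a list of 32 other genes of the pathway was followed. In RPE-like cells 23 of the 32 had enough UMIs, and 2 were past 2-fold higher and 0 lower in the mutant library, against 2.61% and 5.01% of all genes, with a median log2 ratio of 0.05. Ins2, an insulin gene, was at 34.5 CPM in control and 127.5 CPM in mutant RPE-like cells, a log2 ratio of 1.86 (1.57 to 2.22), and was at or below 1.59 CPM in the other classes shown. Grb14, an adaptor that blocks insulin receptor signalling, was at 4.04 and 20.7 CPM, a log2 ratio of 2.10 (1.45 to 3.37). Htra1, a secreted protease that cleaves IGF binding proteins, was highest in RPE-like cells at 436.3 and 682.7 CPM, with a log2 ratio of 0.64. H19, the imprinted neighbour of Igf2, was at 86.0 and 87.0 CPM there, with a log2 ratio of 0.02 (-0.25 to 0.29), beside the 2.28 of Igf2.

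In endothelial-like cells 3 of 22 tested pathway genes were past 2-fold lower, namely Htra1 (42 and 8.13 CPM), Igfbp6 (10.1 and 4.34 CPM) and Irs2 (6.80 and 1.63 CPM), against 3.21% of all genes, and 0 were higher. The mesenchyme markers, at 1387 and 183.2 CPM there, moved the same way, and their part was not tested. In the other 5 classes compared, 0 of 20 to 27 tested pathway genes were past 2-fold. Other pathway genes marked single classes, each with its levels in control and mutant cells. Pik3r1, the regulatory subunit of PI3K, had 772.0 and 903.8 CPM in photoreceptor-like cells, the class where Igf1r was highest. In mesenchyme-like cells H19 had 3018 and 3152 CPM, the binding protein Igfbp6 733.9 and 502.7 CPM, and the receptor adaptor Grb10 354.7 and 426.1 CPM. Eif4ebp1, a repressor of translation, had 215.1 and 173.3 CPM in skeletal muscle-like cells.

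Genes whose levels followed each member most closely over the 12 classes were taken from 6948 genes by Pearson correlation of log2(CPM + 1) in the control library, with the mutant value beside it. The first was H19 for Igf2 (0.969 and 0.865), Tmem100 for Igf1 (0.965 and 0.842), Zfp266 for Igf1r (0.981 and 0.941) and Gnas for Igf2r (0.964 and 0.949). For the binding proteins it was Wnt5a for Igfbp2 (0.901 and 0.858), Piezo2 for Igfbp3 (0.976 and 0.894), Nrp1 for Igfbp4 (0.934 and 0.904), Fbln5 for Igfbp5 (0.957 and 0.866) and Col4a2 for Igfbp7 (0.972 and 0.918). Airn, the antisense RNA of the Igf2r locus, was the next gene for Igf2r (0.963 and 0.947). The remaining genes of the first 3 were Anxa6 and Emp3 for Igf1, Nov and Mxra8 for Igf2, Epm2aip1 and Mettl9 for Igf1r, Nov for Igf2r, and Megf6 and Ehbp1 for Igfbp2. For the other binding proteins they were Plpp1 and Tek for Igfbp3, Ecm1 and Tnfsf12 for Igfbp4, Loxl1 and 1500015O10Rik for Igfbp5, and Eva1b and Tns1 for Igfbp7. Among the 9 genes themselves, Igf2 and Igf2r had the closest patterns (0.93 and 0.89), followed by Igf1 and Igf2 in the control (0.88), while Igf1r followed no other member above 0.41 in the control library.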

How the data were processed

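Per the labels, polyA RNA of pooled P0 eye cups was sequenced as 10x Genomics 3′ libraries. The deposited values are raw counts of UMIs per gene and cell, which the authors made with Cell Ranger (7.1.0 in the submitters' processing notes, 3.1.0 in the matrix header) on mm10. Gene annotation is not given in the sources used here. The authors' cell labels were not used here, so classes were rebuilt and may differ from the study's.

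Cells with at least 200 genes and at most 15% mitochondrial UMIs were kept, as the study states. Its upper limit of 2000 UMIs was not applied, because 80.2% of control and 92.1% of mutant barcodes exceed it. Doublets were scored with scanpy 1.11.5 and removed at the expected rate (0.8% per 1000 barcodes, 1682 and 1230 cells), since the tool's own threshold marked 0% and 5.48%. Libraries were integrated and clustered in Seurat 5.3.0 (2000 variable genes, 30 components, resolution 1) without the members, pathway genes, Myrf, sex-linked genes and RPE and melanocyte markers. This gave 35 clusters, of which 7, with 16.1% of control and 14.1% of mutant cells, stayed unnamed.

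UMIs were summed per class and library. Levels are given for classes of at least 50 cells (smaller ones separately) and differences for classes of at least 100 cells in each library, and alternatives from at least 20 cells. Intervals are exact (Poisson, conditional Poisson, Clopper-Pearson; scipy 1.17.1) and cover counting error only. The ratio script was tested on simulated data. Named were all members, pathway genes of at least 200 CPM in a class or past 2-fold in RPE-like cells, and the 3 genes most like each member. 1 gene that this rule names is not reported here. Members, lists and rules were chosen with earlier results of these data known. Alternatives changed filters, doublets, clustering, scaling, cell weights, the added CPM, free RNA correction and the sex-linked subset of cells. Other ages were not analysed here.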

Additional observations from a re-analysis of the deposited data

Results flagged for a closer look

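Igfbp2 differed in opposite directions in 2 classes of the same libraries. Its log2 ratio of mutant to control was 1.38 in RPE-like cells and -2.76 in endothelial-like cells, and the difference between the classes was not tested, since each genotype has 1 library. The endothelial value rests on 281 control and 21 mutant UMIs, and the RPE value on 4028 and 7428 UMIs. A single control cell held 151 of the 281 UMIs, and without the top cell of each library the endothelial log2 ratio was -1.79. The mutant endothelial-like level, 0.128 UMIs of Igfbp2 per cell, was below the 0.352 per mutant red blood cell, of which 1 cell held 11 of 31 UMIs. Without that cell the background was 0.23 UMIs per cell, still above the endothelial-like level, so that no ratio is left once either is subtracted.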

How the results depend on the processing

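The count of members past 2-fold in RPE-like cells was 4 (3 higher, 1 lower) and stayed between 3 and 5 under 20 of 21 alternatives. In the main setting 2.61% of all genes were past 2-fold higher and 5.01% lower. That share was not computed for the alternatives, so their counts have no background beside them. With at most 2000 UMIs per cell, the limit the study states, it was 2, with Igf1 and Igf1r lower. The cause was not tested. Under that limit the log2 ratio in RPE-like cells was -0.02 for Igf2 and -0.02 for Igfbp4, against 2.28 and 1.60 in all cells, and 0.66 for Igfbp2, in 209 control and 42 mutant cells, where the median of all genes was -0.35. With cells thinned to 1000 UMIs, the count was 3 with other genes, as Igf1 (-1.16) and Igf2r (-1.16) were past 2-fold lower, Igfbp2 was at 1.35, and Igf2 (0.93) and Igfbp4 (0.80) were within 2-fold. With the mean of per-cell CPM, Igf2 was at 1.02 and Igfbp4 at 0.28. Igfbp3 was within 2-fold (-0.50) in cells with over 8000 UMIs. Igfbp2 in RPE-like cells kept its direction in 19 of 19 alternatives and was past 2-fold in 18. Igf1 in amacrine-like cells, at -1.10, turned to 5.91 with at most 2000 UMIs per cell (32 and 28 cells), 1.94 in cells with an Xist UMI and no Y-linked UMI (24 and 696 cells) and 0.08 after subtracting the UMIs per red blood cell. Igfbp5 in photoreceptor-like cells, at -1.12, turned to 0.09 in cells with over 8000 UMIs (22 and 47 cells).

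The limit of 8000 UMIs, the red blood cell subtraction, leaving out the top cell and leaving out the mesenchyme cluster led by Dkk2 were chosen after seeing the data. Of all values recomputed, 1004 stayed within their counting interval, 431 moved beyond it without a change of direction in a gene past 2-fold, and 6 turned. 3 pairs of class and setting, in photoreceptor-like and pericyte-like cells, had too few cells for a value. No paired analysis was possible because each genotype has 1 library and the groups share 1 replicate number. With 1 library per genotype the spread between replicates is unknown.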
